A study of Homo sapiens with 5 samples.

Results

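The miR-34 family was examined in MCF10A cells, a human breast epithelial line that is immortal but forms no tumours, after loss of attachment and in adherent culture. The family was taken as both arms of 3 hairpins, hsa-miR-34a-5p and hsa-miR-34a-3p, hsa-miR-34b-5p and hsa-miR-34b-3p, and hsa-miR-34c-5p and hsa-miR-34c-3p (written below without the species prefix), chosen by name alone: 6 of the 2565 human miRNA names counted in each library. A miRNA is cut from a hairpin precursor by Drosha and Dicer into a duplex of a 5p and a 3p strand. Usually one strand, the guide, is kept by an Argonaute protein and pairs with target mRNAs through its seed, the bases at positions 2 to 8, while the other strand, the passenger, is mostly degraded. The miR-34 genes are direct transcriptional targets of p53, and miR-34a-5p is known for repressing mRNAs that drive the cell cycle, survival and epithelial-mesenchymal transition, among them those for cyclin D1, BCL2, MET and SNAI1. miR-34a is found in many tissues, while miR-34b and miR-34c come from a shared primary transcript and are most abundant in testis and in multiciliated epithelia, together with the related miR-449 family.

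The detached group held 2 libraries from cultures kept off the dish by a 2% poly-HEMA layer, which prevents adhesion, and the attached group 3 libraries from cells on uncoated plates. All 5 libraries came from the same unmodified line, kept in medium with horse serum, epidermal growth factor, insulin, cholera toxin and hydrocortisone. The labels give a time of 24 h for the detached and 0 h for the attached libraries, whereas the series' design text has 24 h for either culture, so the age of the attached cultures is uncertain. Nothing states that replicates were separate cultures, so p-values speak only of library-to-library spread, possibly technical. Per the labels, RNAs of 18 to 24 nt were gel-purified from 50 µg of total RNA.

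For 5 of the 6 arms a mature sequence was found in RefSeq (GRCh38.p14), printed below with the seed in capitals because the seed decides which mRNAs an arm can pair with. The other arm is miR-34c-5p.
miR-34a-5p: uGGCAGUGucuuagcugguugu
miR-34a-3p: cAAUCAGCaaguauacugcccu
miR-34b-5p: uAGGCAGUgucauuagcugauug
miR-34b-3p: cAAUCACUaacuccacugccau
miR-34c-3p: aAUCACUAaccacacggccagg

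The miR-34b-5p molecule carries the 7 seed letters of miR-34a-5p too, but they start at base 3 in place of base 2, so its own seed is shifted by 1 base. Aligned at that offset, the 2 molecules shared 12 of 22 bases. Among the 3p arms, miR-34b-3p and miR-34c-3p shared 17 of 21 aligned bases, miR-34a-3p and miR-34b-3p 16 of 22, and miR-34a-3p and miR-34c-3p 13 of 21. Each pair was aligned at a single offset without gaps. An inserted base, as between miR-34a-5p and miR-34b-5p, lowers such a count, so the counts do not rank the pairs by likeness. No other human mature miRNA in the RefSeq table had the seed of miR-34a-3p, miR-34b-3p or miR-34c-3p. The arms differ at 4 or more aligned bases in each of these comparisons without gaps. miR-34c-5p, for which no sequence was found, was not compared with any arm, miR-34b-5p included. How the authors' counting treated reads that match several names is not given in the sources used here.

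MIR34A lies on chromosome 1 from 9151668 to 9151777 (hg38, minus strand), in an exon of its long noncoding host gene MIR34AHG in GENCODE 29. MIR34B lies on chromosome 11 from 111512938 to 111513021 and MIR34C from 111513439 to 111513515, both on the plus strand and 417 bp apart. Neither overlaps a GENCODE 29 gene of a type other than miRNA, and both lie within the span of the noncoding gene MIR34BHG in RefSeq, from 111510602 to 111513888. BTG4, a protein-coding gene on the other strand, lies at lower coordinates, with its nearer edge 583 bp from MIR34B. The precursor of miR-34a is shown with both mature arms in capitals, to place the guide and the passenger that are compared below.
MIR34A hairpin: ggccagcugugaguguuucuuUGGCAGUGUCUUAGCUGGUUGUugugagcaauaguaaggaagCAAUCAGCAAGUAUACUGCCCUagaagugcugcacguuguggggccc

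The libraries held 15793173 and 10533740 human miRNA counts in detached replicates 1 and 2, and 8805009 to 12153778 in the attached libraries. Levels are given as CPM, the count scaled to 1000000 human miRNA counts of the same library, and a floor of 3 counts was 0.190 to 0.341 CPM. Attached replicate 2 stood apart from the rest: over 697 tested human miRNAs its Spearman correlation with the other libraries was at most 0.857, against up to 0.961 between the other libraries. It was the lowest of the 5 libraries for 51.2% of these miRNAs and the highest for 22.2%, so the fitted values and counts of the family are also given without it. The epithelial miRNAs miR-200c-3p, miR-141-3p and miR-205-5p were abundant in every library, at 1746 CPM or more. Of 6 markers of blood, liver and muscle cells 5 had counts in each group, and none exceeded 9.68 CPM in detached or 10.9 CPM in attached libraries. Their summed level was 17.8 to 18.2 CPM in detached and 1.59 to 16.5 CPM in attached libraries. Muscle miR-133a-3p had 0 counts under that name in all 5, and the part of RNA from such cells in the results was not tested.

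The guide strand miR-34a-5p dominated the family. It measured 11280 and 9233 CPM in the detached libraries, against 9159, 4144 and 11634 CPM in attached replicates 1, 2 and 3. The groups overlapped, and attached replicate 2 held the lowest value. Among human miRNA names it ranked 15 and 19 in the detached libraries, and 18, 30 and 15 in the attached ones. It made up 96.1% and 95.7% of the counts of all 6 arms in detached libraries, against 96.1%, 91.1% and 97.7% in attached replicates 1, 2 and 3. The family as a whole held 185284 and 101643 counts in detached libraries, and 115813, 40063 and 122865 in attached ones.

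miR-34a-3p, the passenger strand of the same hairpin, measured 147 and 132 CPM in detached libraries, against 109, 5.00 and 76.7 CPM in attached replicates 1, 2 and 3. Both detached values lay above all attached ones. The 5.00 CPM of attached replicate 2 rest on 44 counts (95% Poisson interval 3.63 to 6.71 CPM, for counting error only) and lay 18.5-fold below the mean of the other attached libraries. Of the 697 tested miRNAs 5.74% were as low or lower in attached replicate 2 relative to those libraries.

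Of the neighbouring pair, miR-34b-5p measured 102 CPM in each detached library, against 62.0, 9.54 and 61.0 CPM in attached replicates 1, 2 and 3. The groups did not overlap, and the 84 counts of attached replicate 2 were again the lowest. Its partner strand miR-34b-3p measured 9.12 and 13.5 CPM in detached libraries, against 12.3, 3.86 and 6.59 CPM in attached ones. Here the groups overlapped. miR-34c-5p, which shares the primary transcript, measured 185 and 158 CPM in detached libraries, against 179, 386 and 121 CPM in attached replicates 1, 2 and 3. It was the 1 arm of 6 that was highest in attached replicate 2, at 3399 counts, while the other 5 arms were lowest there. miR-34c-3p measured 8.86 and 11.5 CPM in detached libraries, against 7.49, 1.93 and 4.07 CPM in attached ones, without overlap, on 140 and 121 counts in detached libraries and 91, 17 and 42 in attached ones.

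Mature arms are of nearly equal length, 22 or 23 nt in the sequences above, and their levels are set side by side without a length correction. The order miR-34a-5p, miR-34c-5p, miR-34a-3p held in all 5 libraries, with miR-34a-5p between 10.7 and 96.2 times miR-34c-5p. miR-34a-3p exceeded miR-34b-5p in 4 of 5 libraries, the exception being attached replicate 2, with a ratio of 0.524 there and up to 1.75 elsewhere. At the low end miR-34b-3p exceeded miR-34c-3p in all 5 libraries, by 1.03 to 2.00 times, and in detached replicate 1 their Poisson intervals overlapped (7.69 to 10.7 and 7.46 to 10.5 CPM).

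**Figure D1:**
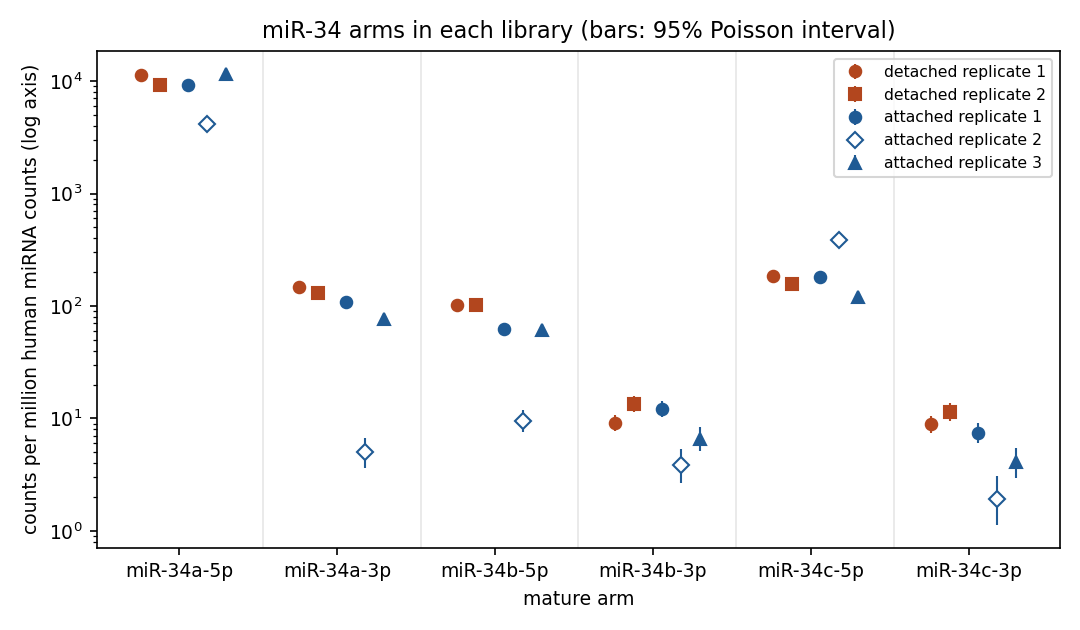
CPM (log axis) of the 6 miR-34 arms in each detached and attached library, with 95% Poisson intervals for counting error. The open diamond, attached replicate 2, is the lowest library for 5 arms and the highest for miR-34c-5p (386 CPM).

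The 5p strand was the more abundant arm of all 3 hairpins, and its share differed between most libraries beyond counting error. For miR-34a the 5p share was 98.7% and 98.6% in detached libraries (95% Wilson intervals 98.66 to 98.76% and 98.52 to 98.67%). In attached replicates 1, 2 and 3 it was 98.8%, 99.9% and 99.3%. Expressed as the passenger strand, miR-34a-3p made up 1.29% and 1.41% of the hairpin's counts in detached libraries, against 1.17%, 0.120% and 0.655% in attached ones. For miR-34c the 3p strand made up 4.58% and 6.76% in detached libraries, against 4.01%, 0.498% and 3.26% in attached replicates 1, 2 and 3. In both hairpins every detached library had a larger passenger share than any attached one, although for miR-34c the interval of detached replicate 1 overlapped those of attached replicates 1 and 3.

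miR-34b gave another pattern, with a 3p share of 8.20% and 11.7% in detached libraries, against 16.5%, 28.8% and 9.74% in attached ones. The groups overlapped, and attached replicate 2 held the largest 3p share here, on 118 counts in all. The mean 5p share of miR-34a was 98.7 ± 0.0837% in detached (SD, n = 2) and 99.4 ± 0.526% in attached cells (SD, n = 3), with an exact two-sided permutation p of 0.2. The same test gave 0.2 for miR-34c and 0.4 for miR-34b, and 0.2 is the smallest p that 2 against 3 libraries allow, so none could pass 0.05. Among the 177 hairpins with both arms tested, the minor arm took a larger share in both detached libraries than in all attached ones in 16.4%, and a smaller one in 12.4%. Attached replicate 2 had the lowest minor-arm share in 44.1% of these hairpins and the highest in 32.2%. Without it the detached minus attached difference of the 5p share was smaller, at -0.43 percentage points for miR-34a (-0.70 with all libraries) and -2.04 for miR-34c (-3.08 with all libraries). For miR-34b it was 3.17 without that library and 8.40 with all libraries, and all 3 differences kept their sign.

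**Figure D2:**
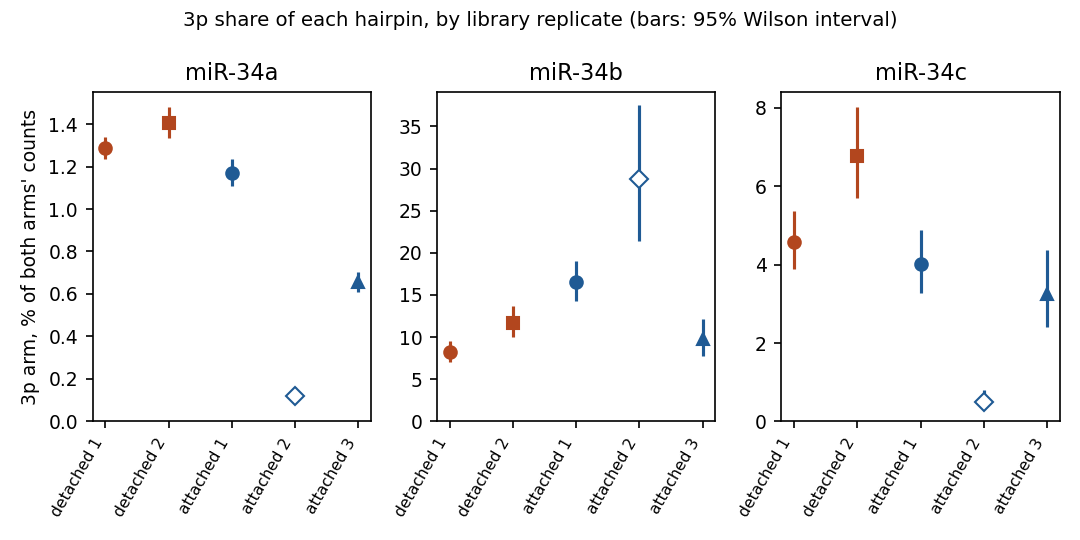
Share of the 3p arm among both arms' counts (percent, axis scaled to each hairpin and starting at 0) by library, with 95% Wilson intervals. In miR-34a and miR-34c attached replicate 2 (open diamond) lies lowest, at 0.120% and 0.498%, while in miR-34b it lies highest, at 28.8%.

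The neighbouring hairpins MIR34B and MIR34C, products of a single primary transcript, did not keep a constant ratio. miR-34c-5p had 1.81 and 1.56 counts per count of miR-34b-5p in detached libraries, against 2.89, 40.5 and 1.98 in attached replicates 1, 2 and 3. The 3p strands gave 0.972 and 0.852 miR-34c counts per miR-34b count in detached libraries, against 0.611, 0.500 and 0.618 in attached ones. Detached libraries thus had the lower ratio for the 5p strands and the higher ratio for the 3p strands. The closest values of the groups were 1.81 against 1.98 and 0.852 against 0.618, the last on 42 and 68 counts. Whether these gaps exceed counting error was not tested, and other neighbouring hairpins were not counted. Both ratios were computed after the values were seen and carry no test.

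**Figure D3:**
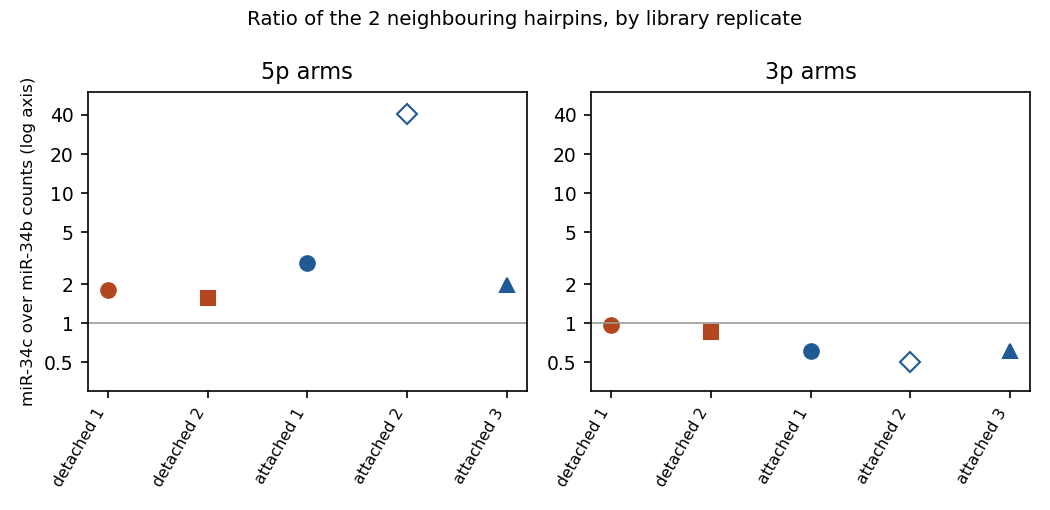
Counts of miR-34c divided by counts of miR-34b (log axis) for the 5p and the 3p arms in each library. The 5p ratio of attached replicate 2 (40.5) stands apart from the other 4 libraries (1.56 to 2.89), and the 3p ratios lie between 0.500 and 0.972.

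The comparison of detached with attached cells was fitted over all 697 human miRNAs that passed the low-count filter, among them all 6 arms. By edgeR's quasi-likelihood test 0 of 6 arms passed an adjusted p of 0.05, beside 0.0% of all tested miRNAs in either direction. At unadjusted p under 0.05 the count was also 0 of 6, against 7.03% of all tested miRNAs, with 33 higher and 16 lower. limma-voom on the same rows called 0 and 0. Over the 1918 rows left without that filter DESeq2 called 12 miRNAs higher and 0 lower, and edgeR 14 and 5, and no arm was among them.

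miR-34a-5p had a log2 fold change of 0.14 (SE 0.55, 95% interval -1.11 to 1.40, edgeR adjusted p 0.959). That interval spans both a lower and a higher level in detached cells, and a change within it could not be resolved with these libraries. miR-34b-5p gave 1.06 (SE 0.78, interval -0.72 to 2.85, edgeR adjusted p 0.770), miR-34a-3p 1.01 (SE 0.99, interval -1.27 to 3.28) and miR-34c-3p 0.94 (SE 0.67, interval -0.60 to 2.48). miR-34b-3p gave 0.32 (SE 0.66) and miR-34c-5p, the 1 negative value, -0.79 (SE 0.80, interval -2.63 to 1.05). The median of the 6 arms was 0.63, beside -0.04 over all tested miRNAs.

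Without attached replicate 2 all 6 values moved towards 0 or past it. The median of the arms was then 0.28, beside -0.06 over all tested miRNAs. miR-34c-5p became 0.08 (SE 0.52) and miR-34a-5p -0.09 (SE 0.46, interval -1.06 to 0.89), both with the sign turned. miR-34b-3p was 0.09 (SE 0.53), and it was 0.86 (SE 0.76) without attached replicate 1 and 0.11 (SE 0.78) without attached replicate 3. miR-34b-5p was 0.63 (SE 0.50), miR-34c-3p 0.65 (SE 0.54) and miR-34a-3p 0.48 (SE 0.51), with unadjusted p of 0.225, 0.241 and 0.368 from edgeR. In that fit 0 of 6 arms passed, beside 3.24% of 679 tested miRNAs higher and 0.147% lower.

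With CPM of library totals 3 of 6 arms, miR-34a-3p, miR-34b-5p and miR-34c-3p, had both detached libraries above all attached ones, beside 18.1% of the tested miRNAs, and 0 arms lay below, beside 8.75%. With TMM-scaled CPM, in which edgeR's factors ran from 0.748 for attached replicate 2 to 1.25 for detached replicate 2, the count was 2 of 6 above, beside 14.9%, and 0 of 6 below, beside 14.2%. Without attached replicate 2 the same 3 arms lay above with library totals, beside 21.8%, and 0 below, beside 16.6%, and with TMM scaling 2 lay above, beside 20.4%, and 0 below, beside 21.5%. miR-34a-3p then overlapped, at 148 and 106 CPM in detached libraries, against 115, 6.68 and 67.3 CPM in attached ones. Scaling by library totals alone moved the median over all tested miRNAs up by 0.24, and miR-34a-5p to 0.30 (SE 0.55) and miR-34b-5p to 1.20 (SE 0.86).

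**Figure D4:**
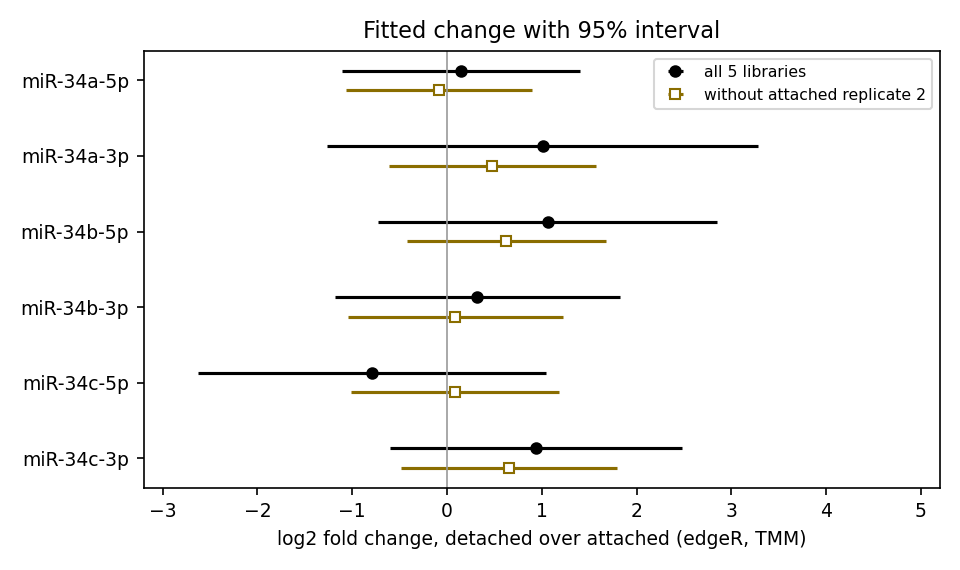
Fitted log2 fold change of detached over attached for the 6 arms with 95% intervals, from all 5 libraries (filled circles) and without attached replicate 2 (open squares). Every interval spans 0, and miR-34a-5p and miR-34c-5p change sign between the fits.

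The authors' deposited table gave log2 fold changes of 0.09 for miR-34a-5p (SE 0.72) and 0.84 for miR-34b-5p (SE 0.80), and of 0.76 for both miR-34a-3p and miR-34c-3p. In the authors' deposited table miR-34c-5p was at -0.61 (SE 0.75), miR-34b-3p at 0.21, and the adjusted p was 0.998 for all 6.

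Outside the family, 4 human miRNAs were found to hold the miR-34a-5p seed letters within their first 9 bases. The search did not cover every chromosome, so the list may be incomplete. These 4 are shown because the same letters let them pair with overlapping sets of mRNAs. miR-449a and miR-449b-5p carry the letters at the same bases as miR-34a-5p, and miR-449c-5p and miR-2682-5p at the shifted position of miR-34b-5p.
miR-449a: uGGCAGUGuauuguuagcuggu
miR-449b-5p: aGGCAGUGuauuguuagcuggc
miR-449c-5p: uAGGCAGUguauugcuagcggcugu
miR-2682-5p: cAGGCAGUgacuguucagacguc

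The 3 miR-449 hairpins lie on chromosome 5 between 55170532 and 55172353, in an intron of CDC20B, a gene of multiciliated cells, and MIR2682 in an exon of MIR137HG. All 4 were scarce here, though miR-449c-5p, at 25 nt in RefSeq, is longer than the 18 to 24 nt that were gel-purified. Whether that lowered the level of miR-449c-5p was not tested. miR-449a measured 16.3 and 18.1 CPM in detached libraries, against 17.3, 11.7 and 24.3 CPM in attached ones, and its groups overlapped. miR-449b-5p and miR-449c-5p stayed at or below 4.46 CPM in detached and 3.78 CPM in attached libraries. miR-2682-5p had 17 and 18 counts in detached and 22, 22 and 23 in attached libraries. Both its detached CPM values lay below all attached ones, beside 8.75% of the tested miRNAs, while its Poisson intervals overlapped between the groups. With TMM scaling miR-2682-5p also lay below, beside 14.2%, and miR-449b-5p lay above, beside 14.9%. By edgeR 0 of these 4 passed the adjusted threshold, and their log2 fold changes ran from -0.95 (SE 0.64) for miR-2682-5p to 0.29 (SE 0.64) for miR-449c-5p. Without attached replicate 2 miR-2682-5p gave -0.66 (SE 0.52), miR-449a -0.36 (SE 0.48), miR-449b-5p 0.095 (SE 0.50) and miR-449c-5p 0.0054 (SE 0.50).

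Summed over these 4 names with miR-34a-5p and miR-34b-5p, a sum of 6 names that does not include miR-34c-5p, the level was 11406 and 9362 CPM in detached libraries, against 9247, 4170 and 11729 CPM in attached replicates 1, 2 and 3. miR-34a-5p supplied 98.6 to 99.4% of that sum of 6 names in each library. The groups overlapped, with a mean of 10384 ± 1445 CPM in detached (SD, n = 2) and 8382 ± 3853 CPM in attached cells (SD, n = 3). The difference of the mean log2 level was 0.43, with an exact two-sided permutation p of 0.8. Without attached replicate 2 it was -0.01. The sum, and the share of miR-34a-5p in it, cover only those outside names that the search for the seed letters found. They also do not cover miR-34c-5p, which was left out because no sequence was found for it. At 121 to 386 CPM across libraries, that arm was above the 4 outside names together, at 17.1 to 33.6 CPM.

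Of 16 other miRNAs described as induced or processed under p53 control, 12 passed the low-count filter. By edgeR 0 passed an adjusted p of 0.05, with 1 higher at unadjusted p under 0.05, beside 0 and 33 of all 697 tested miRNAs. Of the 12 log2 fold changes 7 were positive, with a median of 0.69, beside 340 of 697 and a median of -0.04 over all tested miRNAs. miR-145-5p, a miRNA of smooth muscle, had the smallest p, with 16.9 and 7.69 CPM in detached libraries, against 0.905, 0.681 and 0.388 CPM in attached ones (log2 fold change 3.98, SE 0.78, edgeR adjusted p 0.146). DESeq2 called it higher. miR-15a-5p, which targets BCL2 and cyclin mRNAs, gave 1.74 (SE 0.92) and miR-143-3p, the neighbour of miR-145 in its gene cluster, 1.86 (SE 1.00). Without attached replicate 2 the median was 0.33 and 3 were called higher, miR-143-3p (3.12, SE 0.71), miR-145-5p (4.15, SE 0.71) and miR-1246 (5.08, SE 0.60), beside 3.24% of all tested miRNAs, and miR-15a-5p was at 1.22 (SE 0.50). With all libraries miR-1246 was at 1.51 (SE 1.40). miR-192-5p, miR-194-5p and miR-215-5p, the other long-known p53-induced miRNAs, were at -0.80 (SE 0.76), -0.44 (SE 0.69) and -0.78 (SE 0.86), and 0.30 or closer to 0 without that library. miR-605-5p and miR-103a-3p had 0 counts under those names in all 5 libraries, and miR-149-3p and miR-1915-3p 13 or fewer. Whether their reads were counted under other names was not tested.

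The library profile of miR-34a-5p was set beside those of the other miRNAs among the 171 with a mean of at least 100 CPM, by the root mean square difference of log2(CPM + 1) centred on each miRNA's mean over the 5 libraries. The closest were let-7d-5p (0.0729), let-7f-5p (0.142) and miR-125b-5p (0.186), beside a median of 0.737. let-7d-5p measured 4357 and 3344 CPM in detached libraries, against 3562, 1758 and 4582 CPM in attached replicates 1, 2 and 3, and was likewise lowest in attached replicate 2. The likeness rests on 5 libraries that share their depth and composition across miRNAs, and carries no test.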

How the data were processed

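Each deposited table lists unnormalized read counts for 49965 small RNA names in 1 of 5 libraries, with 5 summary rows that total 0. The submitters' processing notes name the hg38 build and DESeq2, with no aligner or counter named in the labels. The 20869 rows for miRNAs of other species, 63 of them named miR-34, held 0 counts, so no miR-34 read was assigned to another species. A comparison table by the authors adds, as its header shows, log2 fold changes with standard errors. The authors' deposited table also holds a test score, p-values and a signal per library, which is the count over a size factor. From those 100% came out as whole reads (tolerance 0.01) and 100% equalled the raw counts. Names that join several miRNAs are not in that table, which leaves 687 tested rows from the recovered reads, with 0 called.

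Human miRNA rows (2565, 15 of which join several miRNA names) entered edgeR 4.0.16 (R 4.3.3) with TMM factors on library totals, filterByExpr (minimum count 10, minimum total 15), quasi-likelihood F test, two-sided, Benjamini-Hochberg over 697 rows. Standard errors are the absolute log2 fold change over the square root of F. Within groups the libraries were unlike by more than counting noise (chi-square over its degrees of freedom 606 to 3834), and none was counted as a duplicate. Shares carry Wilson intervals and levels Poisson intervals, which cover counting error only, since reads are not independent molecules. Per-library values were compared with exact permutation tests (scipy 1.17.1). The fit was tested on simulated data. Alternatives were DESeq2 1.42.0, limma-voom (limma 3.58.1), other scalings, filters and row sets, a replicate block and leaving out each library. DESeq2 without attached replicate 2, the counts of arms without overlap when that library is left out, and the recovered reads were added after seeing the data.

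The members, the list of p53-linked miRNAs and the tests were chosen with earlier results of these data known. Named miRNAs were all members, the others found with the seed letters, the 3 smallest p and any call of the p53 list, and the 3 closest profiles. miR-192-5p, miR-194-5p, miR-215-5p and the miRNAs that failed the filter were named after their values were seen. Hairpin positions come from GENCODE 29 and sequences from RefSeq, both on GRCh38.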

Additional observations from a re-analysis of the deposited data

How the results depend on the processing

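Across 88 values of the 6 arms under 15 alternatives 0 were called, the lowest adjusted p being 0.559, and 83 kept their direction. Among these alternatives the recovered reads equal the raw counts, so they add no separate check. The stricter filter dropped miR-34b-3p and miR-34c-3p. miR-34a-5p turned negative without attached replicate 2 (-0.09), without detached replicate 1 (-0.15) and with DESeq2 without attached replicate 2 (-0.039), and ran from -0.15 to 0.47 when each library was left out. miR-34c-5p turned positive without attached replicate 2 (0.081, and 0.13 with DESeq2), with a range of -1.23 to 0.081. The other arms stayed positive, with ranges of 0.48 to 1.78 (miR-34a-3p), 0.63 to 1.47 (miR-34b-5p), 0.09 to 0.86 (miR-34b-3p) and 0.65 to 1.54 (miR-34c-3p). The summed seed level, which does not cover miR-34c-5p, ran from -0.011 (without attached replicate 2) to 0.73 on the log2 scale. The cause of these changes of sign was not tested. Over all human miRNAs edgeR called 0 higher and 0 lower, DESeq2 12 higher, edgeR without the low-count filter 14 higher and 5 lower, DESeq2 without attached replicate 2 25 and 5, and leaving out each library 0 to 22 higher and 0 to 1 lower. Of the p53-linked miRNAs 0 were called, 1 with DESeq2, 1 without the filter, 3 with DESeq2 without attached replicate 2 and 0 to 3 when each library was left out. The labels number replicates 1 and 2 in both groups, but the deviations of same-numbered libraries correlated at -0.27 and -0.25. With the replicate number as a block miR-34a-5p gave 0.32, miR-34a-3p 2.16, miR-34b-5p 1.65 and miR-34c-5p -1.03, and 0 arms passed. Fits with 1 detached library assume that it varies like the attached ones. Counts of 17 to 44 in attached replicate 2 limit the precision of miR-34a-3p, miR-34b-3p and miR-34c-3p there.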
